A study of Homo sapiens with 6 samples.

Results

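Aldo-keto reductases were examined in H1975, a human lung adenocarcinoma cell line, by RNA-seq of 3 libraries from parental cells and 3 from H1975 OR, a derivative resistant to the mutant-EGFR inhibitor osimertinib. The 8 genes described are AKR1A1, AKR1B1, AKR1B10, AKR1C1, AKR1C2, AKR1C3, AKR7A2 and AKR7A3, found by symbol among the 20356 genes of the series table. Both groups are EGFR-mutant lung cancer cells grown in RPMI-1640 with serum; parental cells had no drug treatment and H1975 OR cells were cultured with 1 µM osimertinib. H1975 OR is the only resistant derivative here, and resistance and the presence of the drug cannot be told apart. The design text calls the 3 libraries of a group biological replicates.

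Aldo-keto reductases are NADPH-dependent enzymes that reduce aldehydes and ketones to alcohols. Aldose reductase, the product of AKR1B1, turns glucose into sorbitol in the polyol pathway and also clears lipid-derived aldehydes, while the AKR1C enzymes act on steroid hormones and prostaglandins. Several of these genes, AKR1B10 and AKR1C1 among them, are known targets of the transcription factor NRF2, encoded by NFE2L2, which KEAP1 holds in check and which is often activated in lung cancer.

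The AKR1C genes lie side by side on chromosome 10 and are alike in sequence, with AKR1C1 and AKR1C2 near-identical, so their sequences are shown first. Between the coding sequences of AKR1C1 and AKR1C2, each of 972 bases in GENCODE v29, 19 bases differed, and 98.0% were identical. AKR1C3 was identical to AKR1C1 at 91.5% and to AKR1C2 at 91.0% of coding bases. The stretch of 60 coding bases that holds the most differences between AKR1C1 and AKR1C2, coding bases 103 to 162, carries 10 of their 19. In the lines below, capitals mark bases that differ from AKR1C1.
AKR1C1: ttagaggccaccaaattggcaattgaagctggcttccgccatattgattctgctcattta
AKR1C2: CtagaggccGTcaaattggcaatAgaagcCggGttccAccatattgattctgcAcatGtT
AKR1C3: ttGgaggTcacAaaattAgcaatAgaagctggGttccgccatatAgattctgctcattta
How much short sequences can tell the copies apart depended on their length. Of all windows of 50 coding bases in AKR1C1, 51.8% occur letter for letter in AKR1C2, and 14.6% occur in AKR1C3. For windows of 100 bases these shares were 19.1% and 2.18%. How the authors assigned reads that fit several copies is not given in the sources used here, so the separate values of AKR1C1 and AKR1C2 are uncertain.

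The likeness extends upstream of the genes, most closely between AKR1C1 and AKR1C2. RefSeq (GRCh38.p14) gave upstream windows for 7 of the 8 genes, all but AKR1B10. The 250 bases before the AKR1C starts are shown because AKR1C1, AKR1C2 and AKR1C3 were all at higher levels in H1975 OR. AKR1C1 is at chr10:4963165-4963414 on the plus strand and AKR1C2 at chr10:5003858-5004107 on the minus strand. The AKR1C3 starts are preceded by chr10:5094164-5094413 and, for a start farther upstream, by chr10:5048531-5048780, both on the plus strand. Capitals mark the CCAAT box, which reads ATTGG on the strand shown, and the TATA box, which reads TTTATA.
AKR1C1: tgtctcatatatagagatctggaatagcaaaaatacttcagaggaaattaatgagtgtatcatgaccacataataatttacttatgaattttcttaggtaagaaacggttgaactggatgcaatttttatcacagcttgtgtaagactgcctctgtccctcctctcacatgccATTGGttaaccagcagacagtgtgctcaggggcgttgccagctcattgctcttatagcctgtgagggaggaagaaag
AKR1C2: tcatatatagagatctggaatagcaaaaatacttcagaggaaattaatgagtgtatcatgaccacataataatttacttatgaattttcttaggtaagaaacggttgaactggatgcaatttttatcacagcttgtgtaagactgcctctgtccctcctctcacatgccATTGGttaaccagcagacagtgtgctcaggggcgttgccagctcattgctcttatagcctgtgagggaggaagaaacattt
AKR1C3: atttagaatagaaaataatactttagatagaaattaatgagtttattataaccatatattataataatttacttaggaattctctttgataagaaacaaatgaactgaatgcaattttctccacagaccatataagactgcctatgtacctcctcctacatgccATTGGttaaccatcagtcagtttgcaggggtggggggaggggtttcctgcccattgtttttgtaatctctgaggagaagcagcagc
AKR1C3, upstream start: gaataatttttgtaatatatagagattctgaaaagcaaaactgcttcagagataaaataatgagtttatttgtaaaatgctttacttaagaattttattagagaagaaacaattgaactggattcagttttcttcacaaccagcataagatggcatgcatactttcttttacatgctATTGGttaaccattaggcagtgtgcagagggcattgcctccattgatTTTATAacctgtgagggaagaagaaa
The AKR1C1 and AKR1C2 windows aligned with 1 mismatch, besides the offset of their ends, and AKR1C1 and the window at chr10:5094164-5094413 were 69.5% identical. Searched on both strands, CCAAT occurred in each of the 4 windows, at bases -77 to -73 from the AKR1C1 start, against 32.0% of all 35116 RefSeq windows of 250 bases. TATAAA occurred only in the window of the upstream AKR1C3 start, against 10.7% of all windows. The core of the antioxidant response element, TGACNNNGC, and the AP-1 site TGANTCA had no match in the AKR1C windows, against 10.9% and 6.57% of all windows. Sequence farther upstream than 250 bases was not searched, so these genes may hold such elements elsewhere. The AKR1C windows were poorer in G and C than those of the other members: G and C made up 40.8% of the AKR1C1 window, 40.0% of the AKR1C2 window and 35.6% of the AKR1C3 window at chr10:5094164-5094413, against 60.4% for AKR1A1, 78.8% for the first AKR7A2 start and 68.0% and 50.8% for the AKR1B1 starts. The AKR7A2 window held 3 matches to TGACNNNGC.

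Levels are given as FPKM, fragments relative to the length of the transcript and the size of the library. An order of genes by FPKM holds for that measure only, since the read coverage that the authors also deposited gave another order for some of them. A gene was tested where the mean of 1 group or both reached 1 FPKM, which held for 12107 genes, 6 of the 8 aldo-keto reductases among them. AKR1C2 and AKR7A3 stayed below that level. Differences are H1975 OR minus parental in log2(FPKM + 1), which understates the change of low genes, with the standard error (SE) and the adjusted p of limma, and a gene is said to rise or fall at an adjusted p under 0.05. All 6 passed, 4 higher and 2 lower. Of all tested genes 78.0% passed, 39.9% higher and 38.1% lower, so passing alone sets none of the 6 apart. AKR1B10, AKR1C1 and AKR1C3 reached the tested level in 1 group only and thus could pass the filter only with a difference. A log2 difference of at least 1 with an adjusted p under 0.05 was found for AKR1B1, AKR1C1 and AKR1C3, which were higher, and AKR1B10, which was lower. Of tested genes 19.3% met this, 9.95% higher and 9.39% lower. The 3 parental and the 3 resistant values did not overlap for 7 of the 8 genes, all but AKR7A3. These were the 6 tested genes and AKR1C2, which was not tested. Of all tested genes 79.8% had no overlap.

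**Figure D1:**
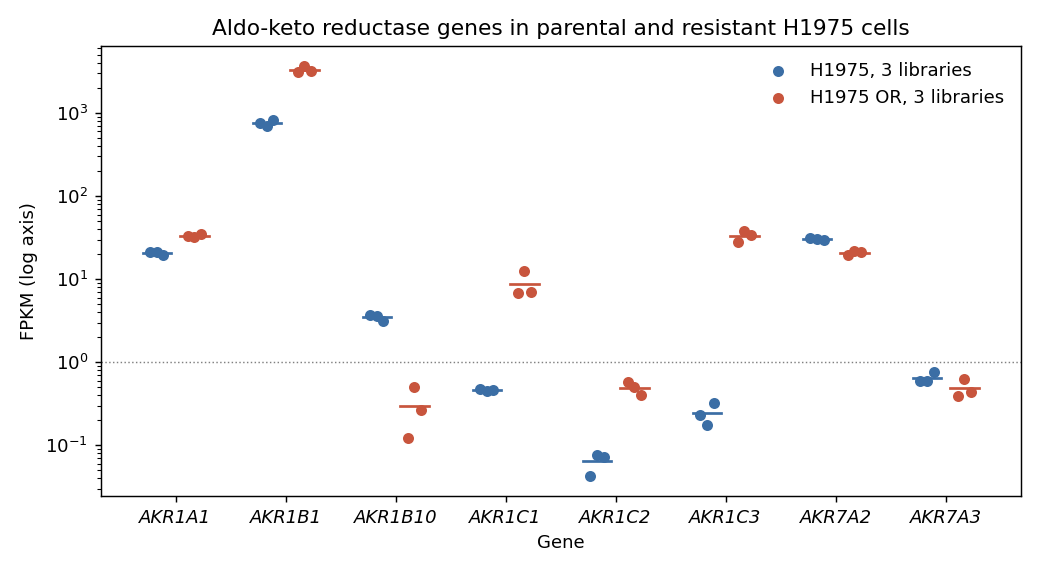
FPKM (log axis) of the 8 genes in each library; points are libraries, short lines are group means and the dotted line is 1 FPKM. AKR1B1 lies far above the others in both groups, AKR1C3 moves from 0.242 to 33.3 FPKM, and the groups overlap only for AKR7A3.

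By FPKM, AKR1C3 had the largest change of the 8 genes. Its enzyme converts weak androgens to testosterone and makes prostaglandin F (10:5077546-5149878 in GRCh37, the build of all gene positions here). Parental replicates 1 to 3 had 0.231, 0.176 and 0.320 FPKM and H1975 OR replicates 1 to 3 had 27.8, 37.8 and 34.4 FPKM. Each resistant library was thus far above each parental one. The means were 0.242 ± 0.0726 and 33.3 ± 5.11 FPKM (SD, n = 3 per group), a ratio of 137. The log2 difference was 4.78 ± 0.10 (SE; limma adjusted p = 4.4e-12), and 10 of the 12107 tested genes rose more on this scale.

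AKR1C1, whose enzyme reduces progesterone to a less active steroid, lies at 10:4934796-5025475. It had 0.471, 0.449 and 0.470 FPKM in parental replicates 1 to 3 and 6.81, 12.6 and 7.09 FPKM in H1975 OR replicates 1 to 3. Parental libraries were nearly equal, and among the resistant ones replicate 2 was well above the other pair, with no overlap between groups. The means were 0.463 ± 0.0127 and 8.84 ± 3.29 FPKM (SD, n = 3 per group), a ratio of 19.1. The log2 difference was 2.70 ± 0.22 (SE; limma adjusted p = 4.7e-05). Without H1975 OR replicate 2 it was 2.44 (limma adjusted p = 1.2e-09).

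AKR1C2, whose enzyme inactivates dihydrotestosterone, stayed low (10:5029967-5060223). It had 0.0430, 0.0773 and 0.0726 FPKM in the parental libraries and 0.574, 0.500 and 0.405 FPKM in the resistant ones. The groups did not overlap, but all 6 values were below the tested level. With no filter on the mean, the log2 difference was 0.49 (limma adjusted p = 0.00015). Counted as 1 gene, AKR1C1 and AKR1C2 rose by 2.71 on the log2 scale (limma adjusted p = 2.5e-05), near the value of AKR1C1 alone. AKR1C1 had 11.0, 5.81 and 6.48 times the FPKM of AKR1C2 in parental replicates 1 to 3 and 11.9, 25.3 and 17.5 times in H1975 OR replicates 1 to 3. By coverage the same ratios were 6.24, 3.61 and 2.89 in the parental and 13.2, 15.9 and 11.8 in the resistant libraries. The groups overlapped in neither measure.

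The order of AKR1C1 and AKR1C3 depended on the deposited measure. By FPKM, AKR1C3 was below AKR1C1 in each parental library and above it in each resistant one, at 4.08, 2.99 and 4.85 times its level in H1975 OR replicates 1 to 3. The authors' library files also give the mean read coverage of each gene. By coverage, AKR1C3 was below AKR1C1 in the resistant libraries too, at 0.798, 0.619 and 0.901 times its level. Divided by the estimated mapped gigabases of the library, the coverage of AKR1C3 was between 4.67% and 5.15% of its FPKM in all 6 libraries. For genes with at least 1 FPKM the median of this share was 47.1% to 47.2% per library, and between 3.53% and 4.06% of them were below AKR1C3. The share for AKR1C3 was alike in both groups, and the contrast had a similar size as a ratio. Mean coverage per gigabase was 0.0123 ± 0.00362 in parental and 1.66 ± 0.257 in resistant cells (SD, n = 3 per group), a ratio of 134. For AKR1C1 the ratio by coverage was 22.8. On the log2 scale with 1 added, the same coverage values gave differences of 1.39 for AKR1C3 (limma adjusted p = 1.9e-10) and 1.53 for AKR1C1 (limma adjusted p = 0.00092). The rise of both genes was thus present in either measure, while the level of AKR1C3 relative to other genes depended on the measure. Both measures come from the same library files, so the second is no independent support for the rise.

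**Figure D2:**
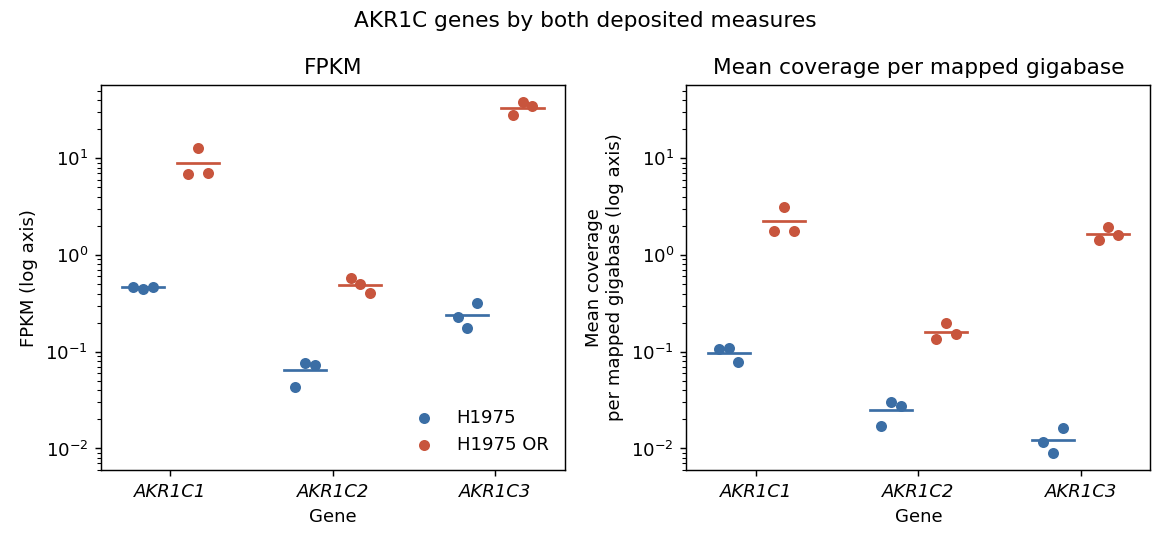
FPKM (left) and mean coverage per estimated mapped gigabase (right), both on log axes, of AKR1C1, AKR1C2 and AKR1C3 in each library; lines are group means. In H1975 OR, AKR1C3 is above AKR1C1 by FPKM (33.3 against 8.84) and below it by coverage (1.66 against 2.23).

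AKR1B1 was the most abundant of the 8 genes in every library (7:134127102-134144036). Parental replicates 1 to 3 had 766, 693 and 823 FPKM, and H1975 OR replicates 1 to 3 had 3078, 3645 and 3210 FPKM. The lowest resistant value was several times the highest parental one. By FPKM it ranked between 59 and 74 among the 20356 genes of the table in parental libraries and between 6 and 9 in resistant libraries. The means were 761 ± 65.1 and 3311 ± 296 FPKM (SD, n = 3 per group), a ratio of 4.35, and the log2 difference was 2.12 ± 0.09 (SE; limma adjusted p = 2.8e-10). AKR1B1 made up 92.5% to 93.8% of the summed FPKM of the 8 genes in parental libraries and 97.0% to 97.2% in resistant ones. That sum was 749 to 877 FPKM in parental and 3167 to 3751 FPKM in resistant libraries.

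AKR1B10, which reduces retinal and lipid aldehydes, lies 68.3 kb from the start of AKR1B1, on the opposite strand, and moved the other way (7:134212344-134226160). It had 3.72, 3.62 and 3.17 FPKM in parental replicates 1 to 3 and 0.124, 0.505 and 0.269 FPKM in H1975 OR replicates 1 to 3. All resistant values were below 1 FPKM and below every parental value. The means were 3.51 ± 0.292 and 0.300 ± 0.192 FPKM (SD, n = 3 per group), 11.7 times lower in H1975 OR. The log2 difference was -1.80 ± 0.10 (SE; limma adjusted p = 9.1e-09), and with a pseudocount of 0.1 it was -3.29. Its neighbour AKR1B15, a close copy with 7.73 kb between them, fell as well, from 1.88 ± 0.291 to 0.165 ± 0.0436 FPKM (SD, n = 3 per group; log2 difference -1.30, limma adjusted p = 1.8e-08). Of the windows of 50 coding bases in AKR1B10, 19.7% occur in AKR1B15 and 0% in AKR1B1, so reads of AKR1B10 and AKR1B15 may be split between them, which was not tested.

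The other members with broad roles changed less. AKR1A1, aldehyde reductase (1:46016215-46035721), had 21.5, 21.0 and 19.6 FPKM in the parental libraries and 33.2, 32.0 and 35.5 FPKM in the resistant ones. Its groups did not overlap, and the log2 difference was 0.67 ± 0.06 (SE; limma adjusted p = 8.5e-07). AKR7A2, a reductase of succinic semialdehyde and aflatoxin aldehydes (1:19630459-19638640), had 31.4, 30.7 and 29.9 FPKM in the parental libraries and 19.6, 21.9 and 21.1 FPKM in the resistant ones. It fell by 0.53 ± 0.06 on the log2 scale (SE; limma adjusted p = 5.1e-06), again with no overlap. By FPKM, AKR7A2 was above AKR1A1 in every parental library and below it in every resistant one. By coverage per gigabase it was above AKR1A1 in the resistant libraries too, at 14.7, 16.6 and 15.7 against 12.5, 14.1 and 13.3 in H1975 OR replicates 1 to 3. AKR7A3, 14.7 kb from AKR7A2 (1:19609052-19615744), had 0.596, 0.598 and 0.756 FPKM in the parental libraries and 0.395, 0.629 and 0.441 FPKM in the resistant ones. These values overlapped, all were below the tested level, and with no filter on the mean the difference did not pass (log2 difference -0.15, limma adjusted p = 0.12).

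In order of FPKM, parental cells had AKR1B1 first, then AKR7A2, AKR1A1 and AKR1B10, each pair of neighbours without overlap, followed by AKR7A3, AKR1C1, AKR1C3 and AKR1C2. In H1975 OR, AKR1B1 was followed by AKR1A1 and AKR1C3, whose values overlapped at 32.0 to 35.5 and 27.8 to 37.8 FPKM, then AKR7A2 and AKR1C1. The lowest 3 in H1975 OR were AKR1C2, AKR7A3 and AKR1B10, between 0.124 and 0.629 FPKM, and their values overlapped. By mean coverage per gigabase the order differed in places. Parental AKR1C3 was below AKR1C2, at 0.0123 against 0.0249. In H1975 OR, AKR1B1 was followed by AKR7A2 at 15.7, AKR1A1 at 13.3, AKR1C1 at 2.23 and AKR1C3 at 1.66, and the values of AKR1C1 and AKR1C3 overlapped between libraries.

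**Figure D3:**
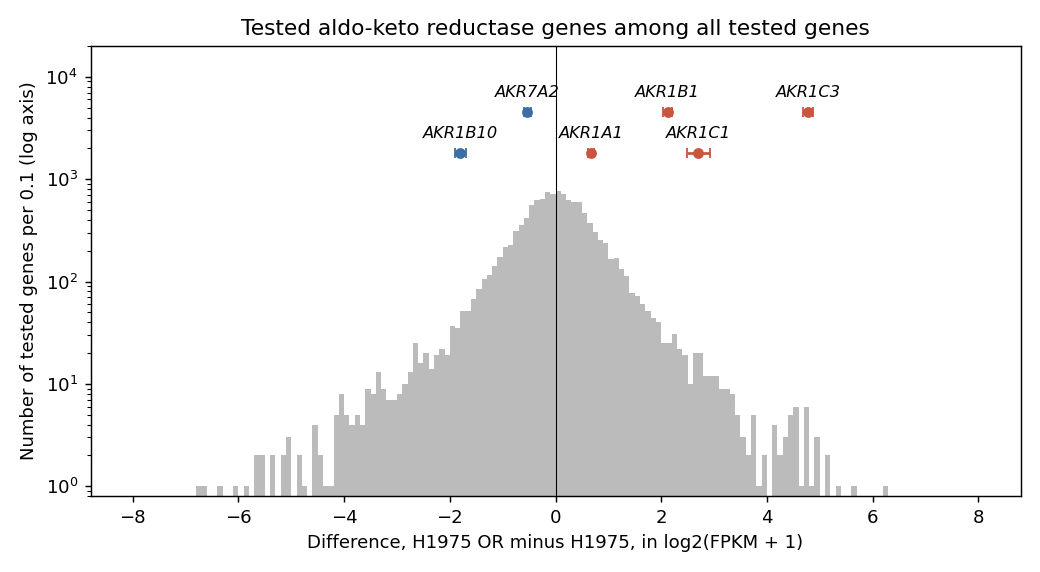
Differences (H1975 OR minus parental, log2(FPKM + 1)) of the 12107 tested genes as a histogram with a log count axis, with the 6 tested aldo-keto reductases above it as points with SE bars; their height carries no value. AKR1C3 at 4.78 lies in the far right tail, and AKR7A2 at -0.53 and AKR1A1 at 0.67 lie among the bulk.

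Other genes of the superfamily were found for 8 of 10 listed symbols, and 4 were tested, with 2 higher and 2 lower. Over all tested genes 39.9% were higher and 38.1% lower, the shares to set beside this and the later counts. KCNAB2, a potassium channel beta subunit with the aldo-keto reductase fold (1:6051526-6161253), rose from 3.48 ± 0.269 to 10.6 ± 1.01 FPKM (SD, n = 3 per group; log2 difference 1.37, limma adjusted p = 6.4e-09). Its relative KCNAB3 was at 0.900 ± 0.105 and 1.21 ± 0.0520 FPKM, a log2 difference of 0.22 (limma adjusted p = 0.015) that did not pass without parental replicate 1 (limma adjusted p = 0.083). AKR1E2, on chromosome 10 before the AKR1C genes (10:4828821-4890254), fell from 6.20 ± 0.315 to 3.50 ± 0.175 FPKM (log2 difference -0.68, limma adjusted p = 1.3e-06), and AKR1B15, given above, was the other that fell. AKR1C4, the liver member of the AKR1C group, was at most 0.0216 FPKM, and AKR1D1, AKR1CL1 and KCNAB1 were also below 1 FPKM in every library.

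The NRF2 pathway, as regulators and common targets other than aldo-keto reductases, moved in both directions. Of 28 tested members 10 rose and 16 fell, against 39.9% and 38.1% of all tested genes. The median difference was -0.42, against 0.01 over all tested genes. Among the targets that fell were HMOX1, heme oxygenase, from 134 ± 6.12 to 15.1 ± 1.41 FPKM, and NQO1, a quinone reductase, from 231 ± 12.3 to 98.3 ± 2.46 FPKM (SD, n = 3 per group). The subunits of the enzyme that starts glutathione synthesis, GCLM and GCLC, fell by 1.73 and 0.84 on the log2 scale. The ferritin light chain gene FTL rose from 427 ± 11.9 to 1187 ± 36.0 FPKM. Among regulators, NFE2L2 itself fell from 40.2 ± 2.16 to 29.6 ± 1.52 FPKM (log2 difference -0.43, limma adjusted p = 6e-05), and KEAP1 rose from 31.2 ± 2.15 to 48.2 ± 3.22 FPKM (0.61, limma adjusted p = 5.5e-06). BACH1, a repressor at the same DNA elements, rose by 1.32, and the small MAF genes MAFF and MAFK by 1.25 and 0.62 on the log2 scale. AKR1B10 was lower, as were 16 of the 28 tested pathway genes, and AKR1C1, AKR1C3 and AKR1B1 were higher, as were 10 of them. Whether NRF2 takes part in these differences was not tested.

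NADPH is the cofactor of these enzymes. Of 12 tested genes that supply it, 7 rose and 4 fell, against 39.9% and 38.1% of all tested genes. Their median difference was 0.37. Among those that fell were genes of cytosolic enzymes: IDH1 went from 74.7 ± 6.41 to 27.2 ± 2.30 FPKM (SD, n = 3 per group; log2 difference -1.42, limma adjusted p = 4.9e-09), while ME1 fell by 0.66 and PGD by 0.22 on the log2 scale. Those that rose most encode mitochondrial enzymes. NADK2, the mitochondrial NAD kinase, rose from 11.3 ± 1.07 to 67.1 ± 3.71 FPKM, ALDH1L2 from 0.358 ± 0.0911 to 5.74 ± 0.839 FPKM and IDH2 from 17.2 ± 0.707 to 49.1 ± 3.58 FPKM (SD, n = 3 per group). PGLS, a cytosolic enzyme of the pentose phosphate pathway, rose by 0.66 on the log2 scale.

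Among 29 tested genes listed for carbonyl and aldehyde enzymes of other families, 9 rose and 18 fell, with a median of -0.43. The shares over all tested genes were 39.9% and 38.1%. The largest decreases were those of the retinal dehydrogenase gene ALDH1A3, from 17.1 ± 1.14 to 1.66 ± 0.0967 FPKM, and of ALDH2, the mitochondrial aldehyde dehydrogenase, from 8.01 ± 0.821 to 0.556 ± 0.135 FPKM (SD, n = 3 per group). The short-chain dehydrogenase genes DHRS2 and RDH13 fell by 2.20 and 2.03 on the log2 scale. CBR4, a mitochondrial carbonyl reductase, had the largest rise (log2 difference 1.39). It was followed by KHK (0.65), a fructose kinase that the list also holds, PTGR1 (0.62) and ALDH7A1 (0.59). SORD, which oxidises the sorbitol made by aldose reductase and was chosen after its values were seen, fell from 20.4 to 11.9 FPKM (log2 difference -0.73), while AKR1B1 rose.

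Of 22 tested genes of steroid and prostaglandin metabolism, on whose substrates the AKR1C enzymes act, 9 were higher and 9 lower. This was near the shares over all tested genes, 39.9% and 38.1%, and the median was -0.04. HSD3B7, of bile acid synthesis, rose from 9.91 ± 0.985 to 43.9 ± 3.02 FPKM, and the hydroxysteroid dehydrogenase genes HSD17B6 and HSD17B14 rose by 1.78 and 1.45 on the log2 scale. PTGER4, a receptor of prostaglandin E, rose by 1.27. PTGES, a prostaglandin E synthase, fell from 89.4 ± 7.86 to 32.4 ± 3.22 FPKM (SD, n = 3 per group), and PPARG, SULT2B1 and HSD11B2 fell by 1.15, 1.12 and 1.11 on the log2 scale.

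**Figure D4:**
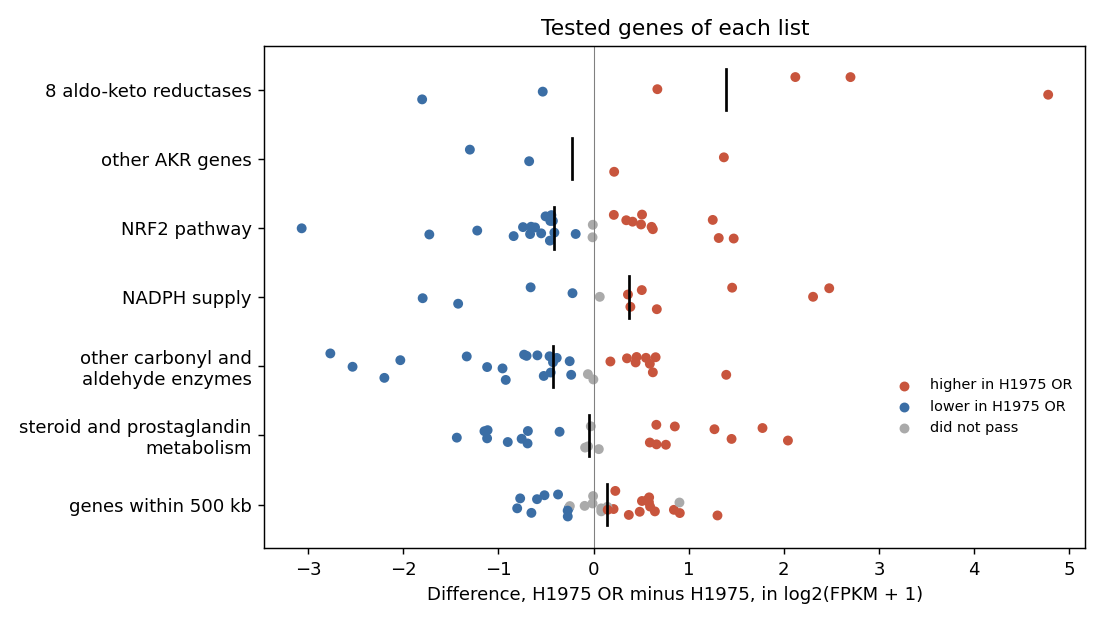
Differences (H1975 OR minus parental, log2(FPKM + 1)) of the tested genes of each list; points are genes, coloured by call, with vertical scatter only for visibility, and black bars are list medians. The 8 aldo-keto reductases give 6 points from -1.80 to 4.78, while the NRF2 pathway and the other carbonyl enzymes lie mostly below 0.

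Genes around the 8 genes were compared as a matter of position. Of 31 tested genes within 500 kb, 14 rose and 9 fell, against 39.9% and 38.1% of all tested genes, and their median was 0.14. TUBAL3, 285183 bases beyond AKR1C3, was the only one to differ by at least 1. It was at 0.0105 ± 0.0101 and 1.49 ± 0.0748 FPKM (SD, n = 3 per group), with a log2 difference of 1.30 (limma adjusted p = 2.4e-09). NET1, also on that side of AKR1C3, fell by 0.80 on the log2 scale. Near AKR1B1 and AKR1B10, 2 of 5 tested genes rose and 2 fell, and their median was 0.08. Near AKR1A1, PIK3R3 and CCDC163P rose by 0.91 and 0.84, and HPDL and NASP fell by 0.65 and 0.59. Near the AKR7 genes, UBR4 rose by 0.64 and IFFO2 fell by 0.77 on the log2 scale.

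The genes with profiles nearest to AKR1C3, by Euclidean distance over the 6 libraries in log2(FPKM + 1), were RFTN1 (distance 0.46), BDKRB1 (0.51) and LRIG1 (0.54). RFTN1 was at 0.448 ± 0.130 and 35.3 ± 2.13 FPKM (SD, n = 3 per group). Nearest to AKR1C1 were B3GNT9 (0.54), MARCHF3 (0.58), which the table lists under a date, and SLC6A12 (0.64). With 2 groups this measure picks genes of the same level in each group.

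Facts of the libraries that touch these values are few. The estimated mapped sequence was 9.72 to 14.7 gigabases per library, and between 11410 and 11555 genes reached 1 FPKM. Of 8 tested epithelial markers 7 fell, and their summed FPKM was 2989 to 3507 in parental and 929 to 1005 in resistant libraries; NKX2-1 was listed at 0 in each resistant library, and the alveolar genes SFTPB and SFTPC were below 1 FPKM in both groups. Of 8 fibroblast markers 2 reached the tested level and both rose, COL1A1 and PDGFRB, with DCN listed at 0 in all libraries and a summed FPKM of 2.41 to 2.97 in parental and 18.1 to 22.0 in resistant libraries. Of 7 leukocyte and endothelial markers found, 3 were tested and rose, CD14, CD68 and CDH5, with a summed FPKM of 24.6 to 28.2 and 71.3 to 81.4, while CD3E was listed at 0 and PTPRC was below 1 FPKM. Whether these shifts take part in the differences of the aldo-keto reductases was not tested. In such bulk samples fewer cells with a transcript and less of it per cell cannot be told apart.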

How the data were processed

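The 6 libraries were grouped by sample title. GRCh37 is the build in the submitters' processing notes. The aligner, quantifier, annotation and the assignment of reads between copies are not stated there. The authors deposited FPKM in a series table, and FPKM, TPM and mean coverage (a signal not scaled to depth) in a file per library, per the file headers. No read counts were used, so depth in reads is unknown and no counting interval is given. The most common ratio of coverage to FPKM among genes above 1 FPKM was taken as the mapped gigabases. Between 11.1% and 11.8% of these genes per library had this ratio, so the gigabases are an estimate.

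The test was limma 3.58.1 (R 4.3.3), two-sided, on log2(FPKM + 1) of genes whose mean reached 1 FPKM in at least 1 group. The model held the group alone, with trend and robust moderation, and p-values were adjusted by Benjamini-Hochberg over 12107 genes. The spread behind each p-value is that among 3 libraries of 1 line per group. An exact permutation test of 3 against 3 cannot go below 0.1 and was not used. The scripts were tested on simulated data.

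The members and lists were chosen with earlier results of these data known. Named genes are the 8 members, the other superfamily genes, NFE2L2, KEAP1, up to 4 called genes per direction with the largest differences in each list and within 500 kb, and the 3 nearest profiles of the 2 members that changed most; 1 gene that the rule names is not reported here, and others are marked as chosen after their values were seen, or are cell type markers. Alternatives covered the pseudocount, filter, scaling, TPM, moderation, replicate block, each library left out, summed AKR1C genes and, chosen after seeing the data, coverage. Coding sequences came from GENCODE v29 and upstream windows from RefSeq (GRCh38.p14), aligned with Biopython.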

Additional observations from a re-analysis of the deposited data

Results flagged for a closer look

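The library files list aldo-keto reductase copies that the series table does not hold, and 6 of them were higher in every H1975 OR library than in every parental one. The other listed copies overlapped between groups: AKR1B10P1, AKR1B10P2, AKR1B1P6, AKR1B1P8, AKR1C5P, AKR1C6P, AKR1D1P1 and AKR7A2P1. Of these, AKR1B10P2, AKR1C5P and AKR1D1P1 were listed at 0 in every library. Of all tested genes 79.8% had no overlap, in either direction, and none of the copies reached a mean of 1 FPKM. AKR1C7P, a pseudogene beside the AKR1C genes, was at 0.0256 ± 0.0443 FPKM in parental and 0.561 ± 0.103 FPKM in resistant cells (SD, n = 3 per group). AKR7L, a near copy of AKR7A3, was at 0.227 ± 0.0728 and 0.363 ± 0.0374 FPKM. The processed copies of AKR1B1 on other chromosomes that met the same rule were AKR1B1P1 (0.0225 and 0.175 FPKM), AKR1B1P2 (0.0345 and 0.160 FPKM), AKR1B1P4 (0.0134 and 0.0367 FPKM) and AKR1B1P7 (0.0420 and 0.181 FPKM), given as parental and resistant means. The summed FPKM of the 6 listed copies of AKR1B1 was 0.0146% to 0.0179% of that of AKR1B1 in parental libraries and 0.0172% to 0.0178% in resistant ones. Whether reads of AKR1B1 were assigned to these copies was not tested.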

How the results depend on the processing

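Each of the 6 tested aldo-keto reductases kept its direction and passed in every alternative in which it was tested. Requiring 1 FPKM in both groups left 2 members higher and 1 lower, since fewer genes are tested, and of the other superfamily genes 1 higher and 1 lower; the steroid and prostaglandin list then had 5 lower. With no filter on the mean, 4 other superfamily genes and 14 steroid and prostaglandin genes were higher. With coverage in place of FPKM, 0 of the other superfamily genes were higher and 1 was lower, and 4 steroid and prostaglandin genes were lower. That setting required a mean coverage of 1 per gigabase in either group, which KCNAB2, KCNAB3 and AKR1B15 did not reach, so they were not tested. Their parental and resistant means by coverage were 0.112 and 0.309, 0.389 and 0.519, and 0.515 and 0.0476. Leaving out 1 library gave 1 to 2 other superfamily genes higher. The pseudocount of 0.1 gave AKR1C1 a difference of 3.93 and AKR1C3 one of 6.62. Deviations of same-numbered libraries had correlations of -0.136, 0.0761 and 0.0990 over 12107 genes, against -0.161 to 0.0782 for the other pairs. Deviations were taken from means of 3 libraries, so these values cannot settle whether the numbers pair the libraries. With the replicate block 4805 genes were higher and 4617 lower, against 4833 and 4615, and each of the 6 kept its call. With TPM from the library files 5444 were higher and 4728 lower. Levels under 1 FPKM, as in AKR1C2, AKR7A3 and parental AKR1C3, are the least certain.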
